A study of Arabidopsis thaliana with 12 samples.

Results

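In Arabidopsis thaliana, 59 genes had a mean above 100 normalized counts in the gene table of Col-0, the laboratory reference accession, and a mean of exactly 0 in that of Kn-0, a natural accession, out of 27801 genes that both tables hold. Kn-0 seedlings treated with 5 µM abscisic acid (ABA), Kn-0 mock seedlings, Col-0 seedlings treated with 5 µM ABA and Col-0 mock seedlings made up the 4 groups, with 3 biological replicates each and 12 libraries in all. Whole seedlings aged 4 days and grown under continuous light were moved for 3 h to ABA or to control medium, and all groups were wild accessions without a transgene. Each gene table gives the authors' mean over the 6 libraries of an accession and the change under ABA, while the splicing tables give reads at the junctions of each alternative splicing event in every library. Event reads here are the sum over both forms of an event, so those of a retained intron include reads that run into the intron. The means chose the genes, so the levels in the gene tables are described here without a test.

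A mean of 0 in the Kn-0 gene table stood beside reads in the Kn-0 splicing tables for many of these genes. Of the 31 genes with a splicing event in either accession, 25 had reads in the Kn-0 splicing tables on an event with an intron length of the gene. For 16 genes the reads stood under the gene's own identifier (ID), and for another 9 under a neighbouring ID that was listed only for Kn-0. The label of absence from Kn-0 therefore goes against the data for these 25 genes, 6 further genes had a Col-0 event but no Kn-0 read on their introns, and for the 28 genes without an event the splicing tables cannot answer. Here the genes are named by how they were chosen, as listed at 0 in Kn-0.

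Several of these genes are known for control by a conserved upstream reading frame, a short coding stretch in the leader (the 5′ untranslated region) that is translated before the main frame and can hold its translation back. In plants such frames sense metabolites: sucrose represses the group S1 basic leucine zipper (bZIP) transcription factors through one, thermospermine acts through those of the SAC51 family, and choline through that of XPL1. Under drought, plants build up ABA, which closes stomata and slows the growth of seedlings.

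To show the kind of junction behind these reads, exon junctions inside coding sequence are given from the RefSeq assembly TAIR10.1, not from Kn-0 reads, 5′ to 3′ on the gene's strand, with the last 15 bases of the upstream exon in lower case and the first 15 of the downstream exon in capitals. Each was chosen because an event with this intron length had reads in all 6 Kn-0 libraries, and the tie to Kn-0 rests on event type, strand and intron length alone. Where an event has alternative splice sites, as in XPL1, PAO2, LHW, TPPG and WNK8, its reads cover both junctions and the one with the shorter intron is printed. XPL1 (AT3G18000) encodes a phosphoethanolamine methyltransferase, and its intron lies at chr3:6156823-6156903 on the plus strand. The polyamine oxidase gene PAO2 (AT2G43020) has its intron at chr2:17892857-17892947 on the plus strand. LHW (AT2G27230) encodes a transcription factor of root vascular development, with the intron at chr2:11653003-11653094 on the plus strand. HB-1 (AT3G01470), a homeodomain leucine zipper gene, has its intron at chr3:183541-183627 on the minus strand. The trehalose 6-phosphate phosphatase gene TPPG (AT4G22590) has its intron at chr4:11895020-11895113 on the minus strand, and WNK8 (AT5G41990), a WNK kinase gene, at chr5:16796129-16796203 on the minus strand.
XPL1: caagcttatggacagATGCTAAAAGACGCT
PAO2: tcatgatctcgagagCTATGCTCTGTTTGA
LHW: ccaaacggtgcaaaaTGTAGCATTGATGCA
HB-1: ctcactaccgaacaaGTGCATCTGCTGGAG
TPPG: caacgggcctggatgCTCAAGTATCCTTCA
WNK8: aaaaaggtcacctcgAACATAAAGCCTCAG

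Junction totals over 1 event per gene ran from 14597446 to 15285017 per library in Kn-0 and from 14252404 to 15551129 in Col-0. The deposited means matched whole seedlings in both accessions, since the shoot, root and seed genes checked were all detected, while the pollen gene VGD1 had a mean of 0 in Kn-0 and 0.322 in Col-0. Of 14152 genes of both tables with a Kn-0 splicing event, 38 were listed at 0 in the Kn-0 gene table, and 17 of these 38 were among the 59. In Col-0 the same occurred, with 47 of 14297 genes with a Col-0 event listed at 0 in the Col-0 gene table. Among other genes with a Col-0 mean above 100 and a Col-0 event, 93.3% of 13246 had a Kn-0 event under the same ID. The opposite pattern, a mean of 0 in Col-0 and above 100 in Kn-0, held for 158 genes.

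In the authors' deposited table the 59 genes spanned Col-0 means of 106 to 13795 normalized counts, with a median of 1770, against 1350 over the 18134 other genes above 100. UBQ6, which encodes ubiquitin fused to a ribosomal protein, was highest at 13795. AT1G36730, encoding a translation initiation factor, followed in the authors' deposited table at 13591, and XPL1 stood at 10830. Per kilobase of exon UBQ6 also led at 19402 normalized counts, and AT1G70780, an uncharacterized protein gene, came next at 11170. At the lower end, the authors' deposited table gave the terpenoid cyclase family gene AT3G32030 a mean of 106, the C1 domain gene AT2G02630 113 and the noncoding RNA AT1G77138 127. Just outside the choice, AT2G12170 had means of 0 in Kn-0 and 74.9 in Col-0, and AT2G09795 had means of 0.162 in Kn-0 and 652 in Col-0.

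**Figure D1:**
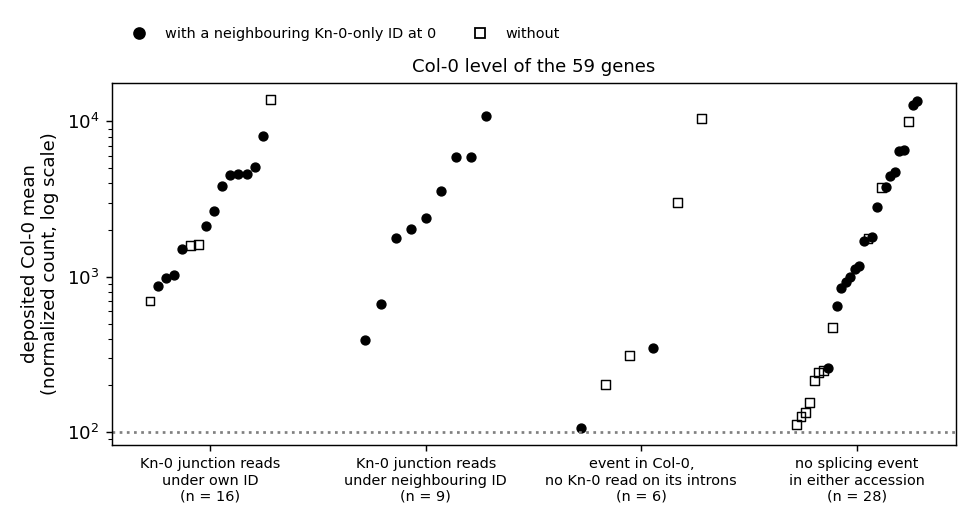
Deposited Col-0 mean (normalized counts, log scale) of each of the 59 genes, grouped by what the Kn-0 splicing tables hold. Filled circles have a neighbouring ID listed at 0 and only for Kn-0, open squares have none, and the dotted line is the minimum of 100. All 9 genes read under a neighbouring ID, and 12 of the 16 read under their own, are filled.

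XPL1 is described first. Its gene-table mean was 0 in Kn-0, and so was that of AT3G17998, an ID beside it that the reference does not annotate. The splicing table for Kn-0 nevertheless gave AT3G17998 an alternative 3′ splice site event with introns of 81 and 118 bases, the lengths read for XPL1 in Col-0. Its junction reads were 2237, 1955 and 2399 in the Kn-0 ABA libraries and 2089, 2215 and 2380 in the Kn-0 mock libraries. In Col-0 the same event stood under XPL1 itself, with 1738, 1939 and 1918 reads under ABA and 2329, 2231 and 1962 in mock. The libraries of the accessions overlapped, and the mock level of Kn-0 over Col-0 was 1.04-fold after scaling to library totals. XPL1 makes the methylated head group of phosphatidylcholine, and its closest relative PMEAMT (AT1G48600, 89.2% identical) had means of 1.34 in Kn-0 and 13800 in Col-0.

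Across genes, 24 of the 59 had at least 1 splicing event of the same type and intron lengths in both accessions, 16 of them more than 1 and XPL1 17. The shared event with the most reads summed over both accessions was used for each gene, and in all 24 every one of the 6 Kn-0 libraries held reads. The lowest Kn-0 library value was 18 reads, in CRF12 (AT1G25470), an AP2 domain transcription factor gene, and the highest 3321, in HB-1. Summed over these events, the 6 Kn-0 libraries held 87209 reads and the 6 Col-0 libraries 81674. At least 200 reads stood in every Kn-0 library for 15 genes. Kn-0 over Col-0 levels in mock ran from 0.623-fold (TPPF) to 1.52-fold (AT4G10955, a hydrolase gene), with a median of 1.05. Over the 10901 other genes with a shared event the median was 1.04, with quartiles of 0.931 and 1.18. In 10 of the 24 genes the Kn-0 event was listed under another ID. The 25th gene with Kn-0 reads, PAO3 (AT3G59050), had no Col-0 event and held 386, 429 and 327 reads under ABA and 357, 339 and 321 in mock in Kn-0.

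**Figure D2:**
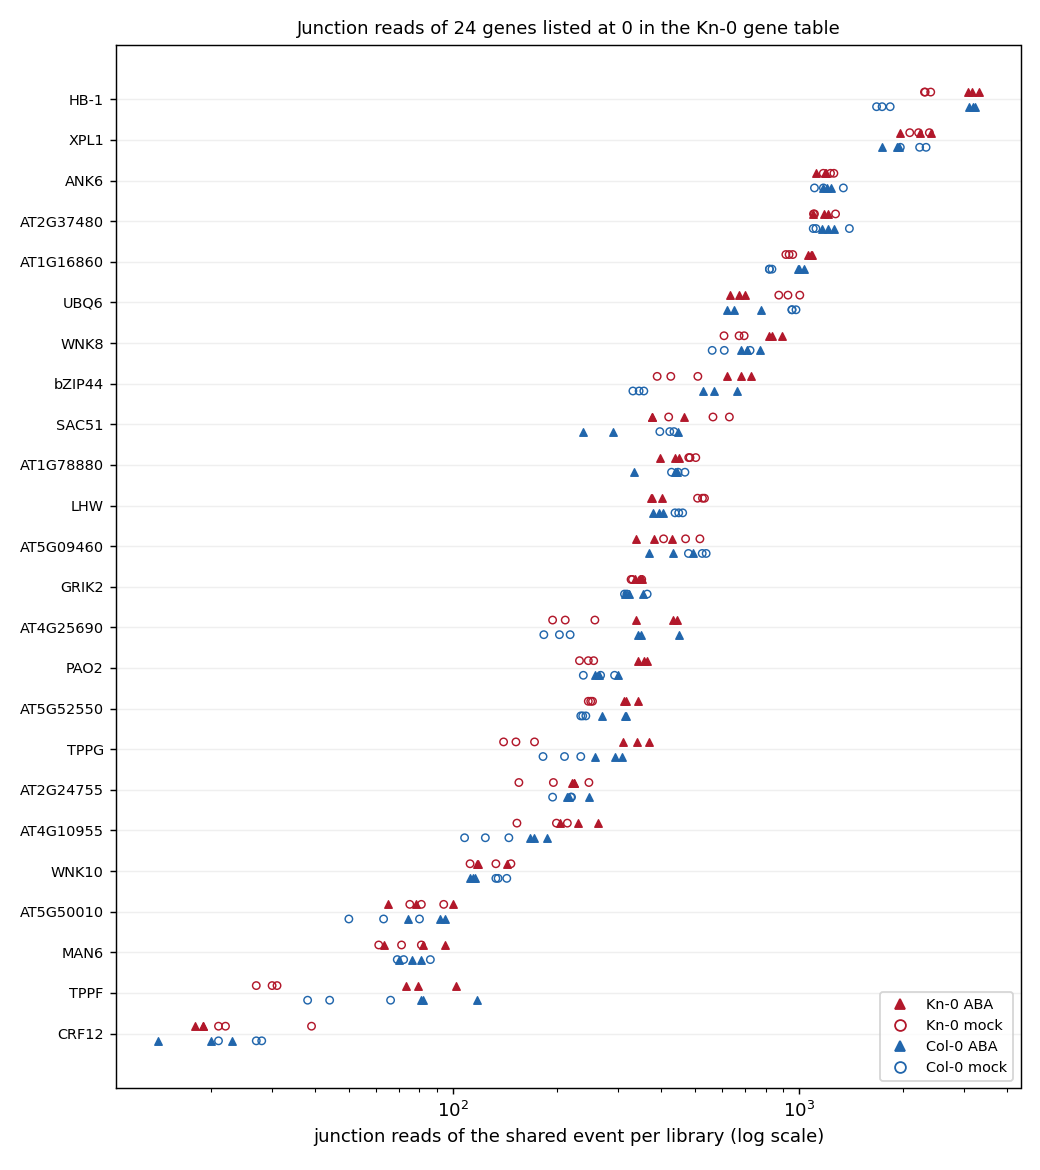
Junction reads per library (log scale) on the splicing event that both accessions share, for 24 of the 59 genes. Red marks are Kn-0 and blue marks Col-0, triangles are ABA and open circles mock, 1 mark per library. Kn-0 values of all genes lie within the range of 18 to 3321 reads, close to those of Col-0 in the same row.

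The 6 genes with a Col-0 event and no Kn-0 read on their introns were AT1G23150, AT3G32030, AT4G19410, AT4G23590, AT5G20450 and AT5G23240. AT4G19410, a pectin acetylesterase gene with 17 annotated introns, stood apart from the 25 genes above. Its 1 Kn-0 event, which matched no intron of the gene, held 1, 4 and 1 reads under ABA and 1, 2 and 2 in mock. In Col-0 its event with most reads held 2404, 2219 and 2239 under ABA and 2917, 2705 and 3102 in mock. AT5G23240, a DNAJ chaperone gene, had 505, 524 and 517 reads under ABA and 509, 505 and 400 in mock in Col-0 and no listed event in Kn-0. AT3G32030, AT4G23590, a tyrosine transaminase family gene, and AT5G20450, a myosin gene, had under 100 reads in each Col-0 library, so a Kn-0 level could be missed at this depth. A missing event is not a count of 0, because the splicing tables list only genes with an alternative event. Since these are bulk seedlings, fewer cells with a transcript and less RNA per cell cannot be told apart.

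Most of the genes had such a neighbouring ID. Of the 59, 40 (67.8%) had at least 1 ID within 5 of their own number that was listed only for Kn-0 and had a mean of 0, against 560 (3.09%) of the 18134 other genes above 100 in Col-0. There were 52 such IDs, of which the TAIR10.1 reference annotates 9, 8 of them beside AT3G32030 and 1 beside AT5G16340. Within 2 numbers, 39 of the 59 and 152 of the 18134 others had such an ID. For the 560 other genes the median ratio of the means, Kn-0 over Col-0, was 1.02, as it was for the 17574 without such an ID. Genes listed at 0 in Kn-0 were left out of both sets, so these ratios cannot show whether such an ID goes with a lower mean. In CRF12 and LHW both IDs carried Kn-0 events, and their spans overlapped on the same strand of the Kn-0 coordinates by 584 and 1371 bases. LHW had 420, 406 and 431 reads under ABA and 503, 553 and 591 in mock under its own ID, and 383, 358 and 407 under ABA and 488, 532 and 565 in mock under AT2G27228. Events of AT4G10955 likewise overlapped those of AT4G10960, whose means were 1.54 in Kn-0 and 897 in Col-0. AT4G19410 overlapped AT4G19400 by 391 bases in Kn-0 and 129 in Col-0. The part that overlapping IDs had in the gene-table values was not tested.

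The leaders of the genes with a neighbouring ID were long, given here as a description. Their median length was 440.5 bases in the 40 such genes and 69 bases in the 15 coding genes without such an ID. The longest annotated leader had a median length of 421 bases in the 55 genes with a coding transcript, against 218 in 18024 other coding genes above 100 in Col-0. A reading frame of at least 25 codons, from ATG to a stop within the leader, was present in 39 of the 55 (70.9%), against 27.4% of the others. Such a frame was present in 34 of the 40 genes with a neighbouring ID and in 5 of the 15 without. These shares were not adjusted for leader length. In GBF6 (AT4G34590, also known as bZIP11) the frame had 42 codons, in SAC51 53, in PAO3 68 and in CRF12 90. XPL1, with 25 codons in a leader of 215 bases, was at the threshold, and TPPF and TPPG, with 24 codons each, were just under it. UBQ6 and MAN6, an endo-mannanase gene, had no such frame in leaders of 66 and 34 bases.

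**Figure D3:**
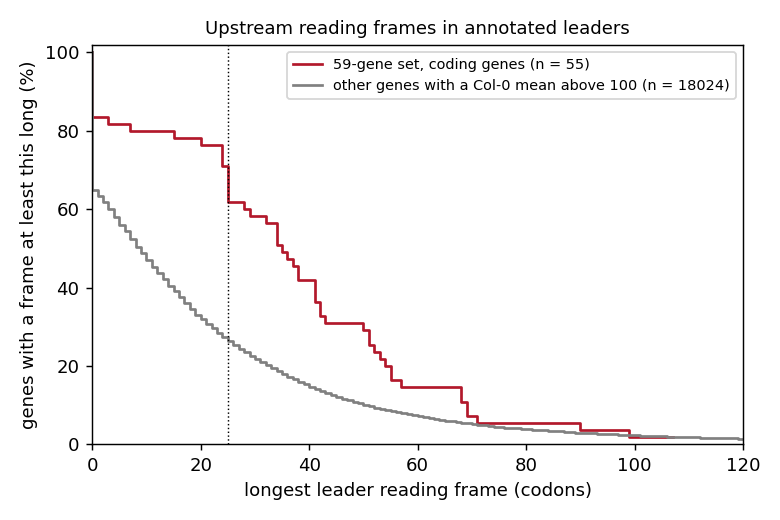
Share of coding genes (percent) whose longest leader reading frame has at least the number of codons on the horizontal axis. The red line is the 55 coding genes listed at 0 in Kn-0, the grey line 18024 other genes above 100 in Col-0, and the dotted line 25 codons, where the shares are 70.9% and 27.4%.

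Some of the genes were relatives of one another. Of 55 genes with a protein, 24 had another of the 59 as their closest relative by blastp, and 9 pairs were each other's closest. No such count is given for other sets of genes. PAO2 and PAO3, polyamine oxidases that convert spermine back to spermidine, were 84.7% identical. TPPF and TPPG were 81.2% identical, the C19-related genes AT1G16860 and AT1G78880 89.5%, and the WNK kinases WNK10 and WNK8 70.6%. SAC51 (AT5G64340), a bHLH factor that acts in the thermospermine response, was paired with bHLH143 (AT5G09460) at 57.3%. The ankyrin repeat genes PIA1 (AT5G07840) and ANK6 (AT5G61230) formed another pair at 78.6%. A relative of at least 80% identity over 80% of the protein existed for 14 (25.5%) of the genes, against 17% of the other genes. Whether reads of the 5 genes with a relative at 90% or more, UBQ6 among them, were divided between copies was not tested. UBQ5, whose protein is 98.1% identical to that of UBQ6, had means of 20200 in Kn-0 and 23800 in Col-0.

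Several relatives lay just outside the choice. Of 23 genes whose closest relative was outside the 59 and above 100 in Col-0, 7 had a relative with a Kn-0 mean under 10% of its Col-0 mean, a share that 0.662% of all other genes above 100 in Col-0 reached. These 6 relatives included GRIK1 (AT3G45240), a kinase that like GRIK2 (AT5G60550) activates SnRK1, with means of 23 in Kn-0 and 2360 in Col-0. CRF10 (AT1G68550) had means of 18.5 in Kn-0 and 1710 in Col-0. Means for AT4G25670 were 10.8 in Kn-0 and 2590 in Col-0.

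By position the genes were scattered, with 11, 11, 9, 11 and 17 on chromosomes 1 to 5. Only 4 lay beside another of the 59 among genes above 100 in Col-0, namely MAPR2 (AT2G24940) beside AT2G24945, and AT5G49440 beside bZIP1 (AT5G49450). The 114 flanking genes above 100 in Col-0 had a median ratio of 1 between the means in Kn-0 and Col-0, and AT4G10960 was the only one with a Kn-0 mean under 10. A list was also checked of genes known for null alleles, for presence and absence among accessions, or for immune recognition, such as RPM1 and FRI. Of the 30 that both tables hold, 25 had a Col-0 mean above 100, and 0 were listed at 0 in Kn-0. Over all 18193 genes above 100 in Col-0, 59 were listed at 0, so a count of 0 in so short a list says little. No NLR immune receptor, F-box or cytochrome P450 gene was among the 59, classes that made up 0.551%, 0.794% and 0.7% of the other genes above 100 in Col-0. Noncoding RNAs and pseudogenes made up 4 of the 59 (6.78%), against 0.535% of the others, and strand-specific counting is not stated in the sources used here.

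The change under ABA was not used to choose the genes. In the authors' deposited table for Col-0, 21 of the 59 genes rose and 11 fell at an adjusted p under 0.05, and the other 27 stayed above that threshold. Over all 23687 tested genes, 19.8% rose and 18.4% fell, and over the 18193 genes of both tables above 100 in Col-0, 23.4% rose and 20.6% fell. The shares among the 59 were 35.6% and 18.6%. The median log2 change was 0.06 over the 59 and 0.00 over all tested genes. With a log2 change of 1 or more, 3 were higher and 1 was lower, as were 5.37% and 3.94% of tested genes. The Kn-0 gene table gives no change for these genes because their mean is 0.

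Among the group S1 bZIP factors, which adjust amino acid and sugar metabolism to energy supply, bZIP44 and bZIP1 rose by log2 changes of 0.77 ± 0.14 (standard error; adjusted p = 1.3e-07) and 0.73 ± 0.16 (adjusted p = 3.5e-05) in the authors' deposited table. The same table had bZIP2 lower at -0.23 ± 0.10 (adjusted p = 0.046), while GBF6 and BZIP53 were at 0.15 ± 0.12 and 0.08 ± 0.08 and did not pass. All 5 had a neighbouring ID at 0. bZIP44 was the one with junction reads, with 618, 680 and 725 under ABA and 389, 426 and 510 in mock in Kn-0, and 568, 527 and 661 under ABA and 356, 345 and 331 in mock in Col-0. In both accessions the ABA libraries lay above all mock libraries. On that event bZIP44 rose by 0.66 ± 0.10 in Kn-0 (adjusted p = 2.1e-05, limma) and by 0.85 ± 0.10 in Col-0 (adjusted p = 8e-07, limma).

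Of the 8 other genes grouped as transcription factors, 3 rose and 2 fell in Col-0, where 23.4% and 20.6% of all genes above 100 did. HB-1 rose by 0.87 ± 0.08 (adjusted p = 1.7e-26), the heat shock factor gene HSF4 by 0.72 ± 0.09 (adjusted p = 6.8e-16) and bHLH145 (AT5G50010) by 0.61 ± 0.10 (adjusted p = 7.4e-09) in the authors' deposited table. LHW fell by 0.19 ± 0.06 (adjusted p = 0.006) and bHLH143 by 0.16 ± 0.07 (adjusted p = 0.041) in that table. SAC51 at 0.06 ± 0.06, CRF12 at -0.09 ± 0.11 and AT1G64140 at 0.03 ± 0.07 did not pass. AT1G64140 is annotated as a WRKY transcription factor, but its closest relative was the loricrin-like gene AT5G64550 (55.7% identical).

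HB-1 was the gene with a called difference in ABA response between accessions. Its shared event, a retained intron, held 3321, 3078 and 3160 reads under ABA and 2402, 2304 and 2315 in mock in Kn-0. In Col-0 it held 3183, 3104 and 3219 under ABA and 1834, 1738 and 1675 in mock. ABA libraries lay above all mock libraries in both, the accessions overlapped under ABA, and every Kn-0 mock library lay above every Col-0 mock library. The rise was 0.49 ± 0.06 in Kn-0 (adjusted p = 7.7e-07) and 0.94 ± 0.06 in Col-0 (adjusted p = 2.8e-11), and Kn-0 minus Col-0 was -0.45 ± 0.08 (95% interval -0.62 to -0.28, adjusted p = 0.0085, limma interaction over 10925 genes). Over the 10925 genes, a response was called lower in Kn-0 than in Col-0 for 0.238% and higher for 0.265%, in all 0.503%, and HB-1 was the 1 gene of the 24 with a called difference. Libraries left out in turn did not end this call (adjusted p from 0.0085 to 0.035, limma). In simulated data the same test recovered 44% of differences with a log2 change of 0.5 and 93% of those of 1. Genes without a called difference were therefore not shown to respond alike.

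LHW held 374, 402 and 375 reads under ABA and 533, 509 and 526 in mock on its shared event in Kn-0, and 395, 379 and 404 under ABA and 438, 449 and 461 in mock in Col-0. ABA libraries lay below mock libraries in both accessions. The change was -0.40 ± 0.07 in Kn-0 (adjusted p = 0.0003, limma) and -0.11 ± 0.07 in Col-0 (adjusted p = 0.29, limma), with a difference of -0.29 ± 0.11 that did not pass (adjusted p = 0.4). On its most-read event in Col-0, another one, LHW fell by 0.41 ± 0.09 (adjusted p = 0.0039, limma). The fall of bHLH143 did not pass on its shared event, at -0.23 ± 0.11 in Kn-0 (adjusted p = 0.12, limma) and -0.18 ± 0.11 in Col-0 (adjusted p = 0.24, limma). SAC51 held 376, 465 and 377 reads under ABA and 420, 564 and 629 in mock in Kn-0, against 237, 290 and 447 under ABA and 396, 435 and 423 in mock in Col-0, and the treatments overlapped in both. Its Col-0 change on this event was -0.33 ± 0.16 (adjusted p = 0.13, limma), opposite in sign to the gene table, and -0.57 without Col-0 ABA library 3 (adjusted p = 0.002, limma). bHLH145 held 100, 78 and 65 reads under ABA and 81, 75 and 94 in mock in Kn-0, against 92, 74 and 95 under ABA and 80, 63 and 50 in mock in Col-0. Its response was -0.01 ± 0.20 in Kn-0 and 0.54 ± 0.20 in Col-0, and their difference of -0.54 ± 0.28 did not pass (adjusted p = 0.61, limma). Its Col-0 rise passed on the shared event (adjusted p = 0.041, limma) and missed the threshold in the fit of Col-0 libraries alone (adjusted p = 0.062, limma).

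Of the 5 enzymes of polyamine, trehalose and lipid head group metabolism, 4 rose in Col-0 and 0 fell. Over all genes above 100 in Col-0, 23.4% rose and 20.6% fell. The 5 come from separate pathways and include the pairs PAO2 with PAO3 and TPPF with TPPG, so no response of a pathway is read from them. In the authors' deposited table TPPF rose by 0.90 ± 0.17 (adjusted p = 8.3e-07), TPPG by 0.51 ± 0.11 (adjusted p = 8.8e-06), PAO2 by 0.40 ± 0.08 (adjusted p = 1.1e-05) and PAO3 by 0.28 ± 0.08 (adjusted p = 0.0026). XPL1, at -0.12 ± 0.08, did not pass. On its most-read event in Col-0, XPL1 was at -0.15 (adjusted p = 0.19, limma), and it passed at -0.25 without Col-0 mock library 3 (adjusted p = 0.015, limma).

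The trehalose 6-phosphate phosphatases, which remove a sugar signal that reports sucrose supply, rose in both accessions. TPPG held 310, 340 and 368 reads under ABA and 140, 172 and 152 in mock in Kn-0, against 257, 308 and 294 under ABA and 210, 234 and 182 in mock in Col-0. TPPF, listed under AT4G12432 in Kn-0, held 73, 79 and 102 reads under ABA and 31, 27 and 30 in mock in Kn-0, against 81, 82 and 117 under ABA and 38, 44 and 66 in mock in Col-0. No ABA library overlapped a mock library of its accession in either gene. TPPG rose by 1.18 ± 0.12 in Kn-0 (adjusted p = 1.4e-07, limma) and by 0.54 ± 0.12 in Col-0 (adjusted p = 0.0013, limma). Its difference of 0.64 ± 0.17 (95% interval 0.28 to 0.99) did not pass (adjusted p = 0.13), but passed at 0.74 without Col-0 mock library 3 (adjusted p = 0.026, limma). TPPF rose by 1.55 ± 0.22 in Kn-0 (adjusted p = 9.6e-06, limma) and by 1.02 ± 0.22 in Col-0 (adjusted p = 0.00089, limma), with a difference of 0.53 ± 0.30 that did not pass (adjusted p = 0.67).

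PAO2 held 364, 343 and 357 reads under ABA and 255, 232 and 246 in mock in Kn-0, where they were listed under AT2G43018, against 265, 258 and 299 under ABA and 293, 267 and 238 in mock in Col-0. The treatments separated in Kn-0 and overlapped in Col-0. On this event PAO2 rose by 0.59 ± 0.10 in Kn-0 (adjusted p = 7.5e-05, limma), against 0.13 ± 0.10 in Col-0 (adjusted p = 0.33, limma), and the difference of 0.46 ± 0.14 (95% interval 0.17 to 0.74) did not pass (adjusted p = 0.22). The Col-0 gene table called PAO2 higher where this event did not.

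Of the kinases, WNK8 rose by 0.35 ± 0.07 in Col-0 (adjusted p = 9.3e-07, the authors' deposited table), while GRIK2 at 0.04 ± 0.07 and WNK10 at -0.15 ± 0.09 did not pass. WNK8 held 835, 819 and 892 reads under ABA and 607, 671 and 694 in mock in Kn-0, against 771, 678 and 705 under ABA and 608, 561 and 722 in mock in Col-0. The treatments separated in Kn-0 and overlapped in Col-0. WNK8 rose by 0.42 ± 0.09 in Kn-0 (adjusted p = 0.00075, limma) and by 0.28 ± 0.09 in Col-0 (adjusted p = 0.016, limma). In the fit of Col-0 libraries alone the adjusted p was 0.048 (limma), and it ran from 0.052 to 0.21 (limma) when any 1 Col-0 library other than mock library 3 was left out, which ended the call, and was 0.0074 without mock library 3. GRIK2 held 346, 335 and 352 reads under ABA and 351, 330 and 327 in mock in Kn-0, against 354, 322 and 315 under ABA and 364, 318 and 313 in mock in Col-0, and its difference in response had a 95% interval of -0.26 to 0.27.

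Among genes of translation and ubiquitin, the RING domain gene AT3G10910 rose by 1.16 ± 0.12 (adjusted p = 1.5e-20) and AT1G16860 by 0.51 ± 0.07 (adjusted p = 2.9e-13) in the authors' deposited table. UBQ6 fell by 0.35 ± 0.06 there (adjusted p = 7.3e-09). On its shared event, a retained intron in the 3′ untranslated region, UBQ6 held 633, 698 and 669 reads under ABA and 874, 929 and 1005 in mock in Kn-0, against 618, 649 and 776 under ABA and 980, 955 and 953 in mock in Col-0. It fell by 0.44 ± 0.08 in Kn-0 (adjusted p = 0.00016, limma) and by 0.42 ± 0.08 in Col-0 (adjusted p = 0.00024, limma). AT1G16860 held 1064, 1091 and 1082 reads under ABA and 936, 916 and 959 in mock in Kn-0, against 1034, 1000 and 991 under ABA and 835, 821 and 821 in mock in Col-0, and ABA lay above mock in both. Its paralog AT1G78880, at -0.02 ± 0.08 in the authors' deposited table, did not pass.

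The remaining genes held the largest changes in either direction. AT4G25690, an NST1-like stress response gene, rose by 1.27 ± 0.11 (adjusted p = 3.6e-29), and its relative AT5G52550 by 0.63 ± 0.08 (adjusted p = 1.3e-14) in the authors' deposited table. AT4G25690 held 339, 445 and 431 reads under ABA and 194, 211 and 257 in mock in Kn-0, against 343, 349 and 449 under ABA and 203, 183 and 218 in mock in Col-0. Its rise was 0.92 ± 0.12 in Kn-0 (adjusted p = 6.7e-06, limma) and 0.99 ± 0.12 in Col-0 (adjusted p = 2.3e-06, limma). The auxin-related SAUR-like gene AT5G53590 rose by 1.01 ± 0.17 (adjusted p = 3e-08) and AT3G53400, annotated as a peptide upstream protein, by 0.81 ± 0.07 (adjusted p = 1e-27) in the authors' deposited table. AT3G32030 fell by 1.20 ± 0.25 (adjusted p = 9.6e-06) and the uncharacterized AT2G10931 by 0.64 ± 0.15 (adjusted p = 0.00012) there. AT3G32030 held 9, 10 and 22 junction reads under ABA and 49, 33 and 27 in mock in Col-0, and its junction change lost the call without Col-0 mock library 1 (adjusted p = 0.082, limma) or without Col-0 ABA library 2 (adjusted p = 0.05, limma). The loricrin-like gene AT5G64550 rose by 0.75 ± 0.13 (adjusted p = 3.9e-08) in the authors' deposited table. AT4G23590 fell by 0.44 ± 0.17 (adjusted p = 0.031), the noncoding RNA AT2G15292 by 0.43 ± 0.08 (adjusted p = 2.1e-06) and the AMP-dependent synthetase gene AT5G16340 by 0.33 ± 0.14 (adjusted p = 0.044) in that table. The methyltransferase gene AT5G01710, at -0.06 ± 0.06, did not pass there. On junction reads in Col-0 the fall of AT4G23590, at -0.57 ± 0.23, did not pass (adjusted p = 0.081, limma). With Col-0 libraries left out in turn, its adjusted p ran from 0.057 to 0.32 (limma). The DUF506 pair moved apart in Col-0, with AT3G22970 lower by a log2 change of -0.47 ± 0.07 (adjusted p = 1.2e-11) and AT4G14620 higher by 0.30 ± 0.11 (adjusted p = 0.021) in the authors' deposited table. The difference within the pair was not tested.

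**Figure D4:**
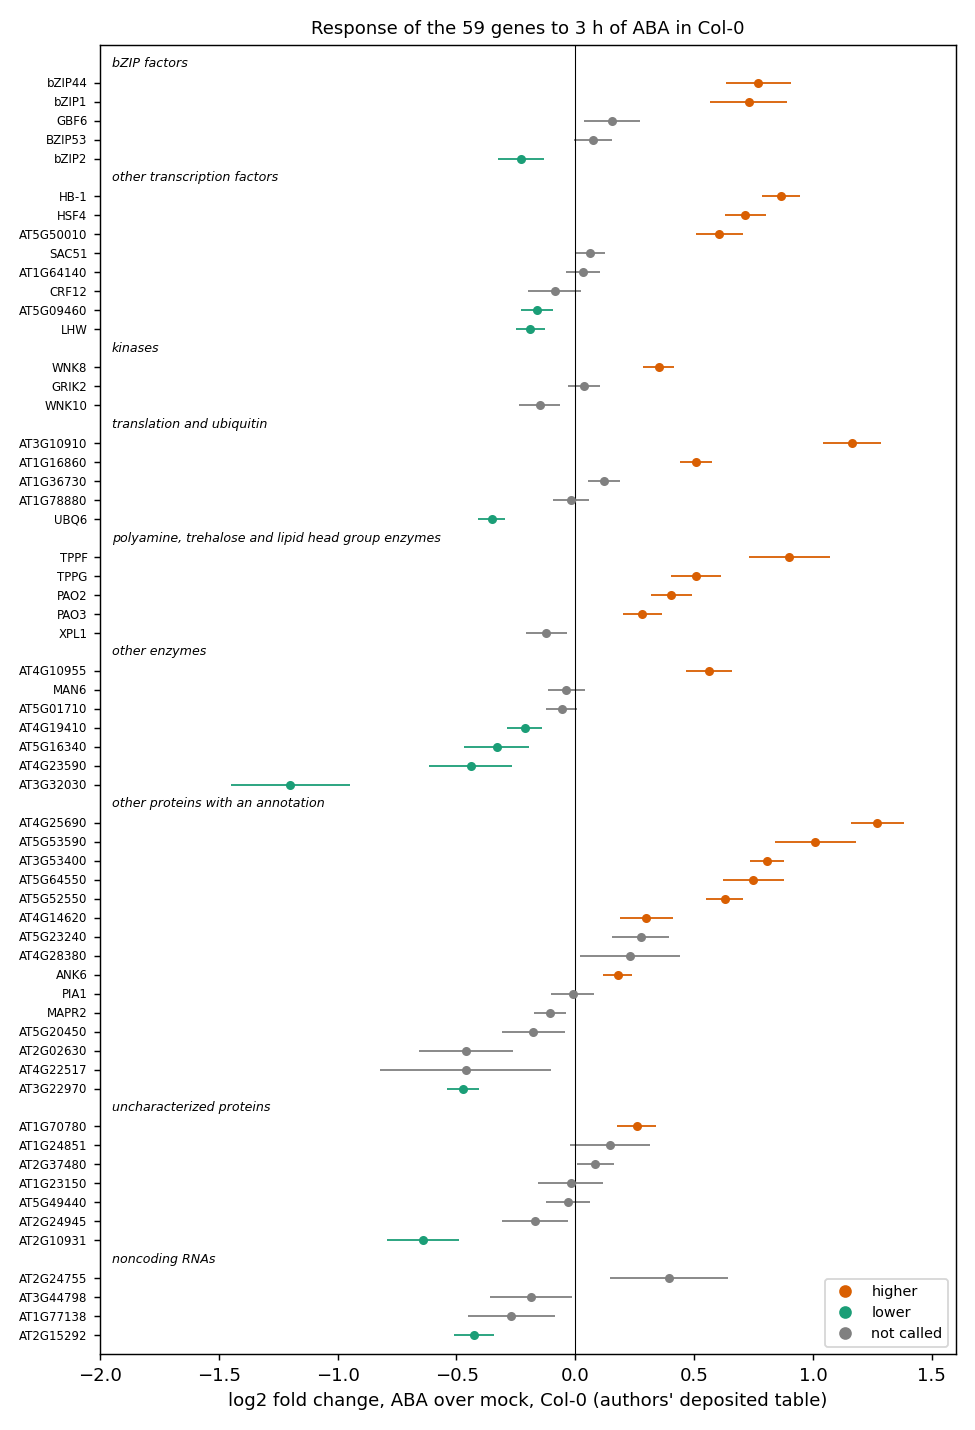
Log2 fold change of ABA over mock in Col-0 with its standard error for all 59 genes, from the authors' deposited table, grouped by role. Orange points rose (21), green points fell (11) and grey points did not pass (27).

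AT4G10955 had different values on different events. Its most-read Kn-0 event held 369, 381 and 364 reads under ABA and 54, 42 and 60 in mock, a log2 change of 2.88 ± 0.14 (adjusted p = 3e-11, limma), but matched 0 intron lengths of AT4G10955 and 1 of AT4G10960. Which gene these reads came from was not tested. In the authors' deposited table AT4G10960 rose by 2.55 ± 0.12 in Col-0 (adjusted p = 1.2e-95). On the event that both accessions share, AT4G10955 held 204, 229 and 263 reads under ABA and 153, 199 and 214 in mock in Kn-0, against 167, 187 and 171 under ABA and 145, 108 and 124 in mock in Col-0. There its change was 0.35 ± 0.14 in Kn-0 (adjusted p = 0.061, limma) and 0.57 ± 0.14 in Col-0 (adjusted p = 0.0032, limma).

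Over the 24 genes with a shared event, 9 rose and 2 fell in Kn-0, where 13.3% and 18.6% of 10925 genes did, and 10 rose and 1 fell in Col-0, where 15.9% and 17.3% did (limma, adjusted p under 0.05). Of these, 8 rose in both accessions, namely AT1G16860, bZIP44, HB-1, TPPF, TPPG, AT4G25690, WNK8 and AT5G52550, and UBQ6 fell in both. The share of the 10925 genes called in both accessions is not given here, so these counts are not read as particular to the 24 genes. Among the 8 that rose in both, WNK8 was the one whose call most single-library omissions ended, in the fit of Col-0 libraries alone given above. PAO2 rose in Kn-0 alone and AT4G10955 and bHLH145 in Col-0 alone at this threshold, without a called difference.

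**Figure D5:**
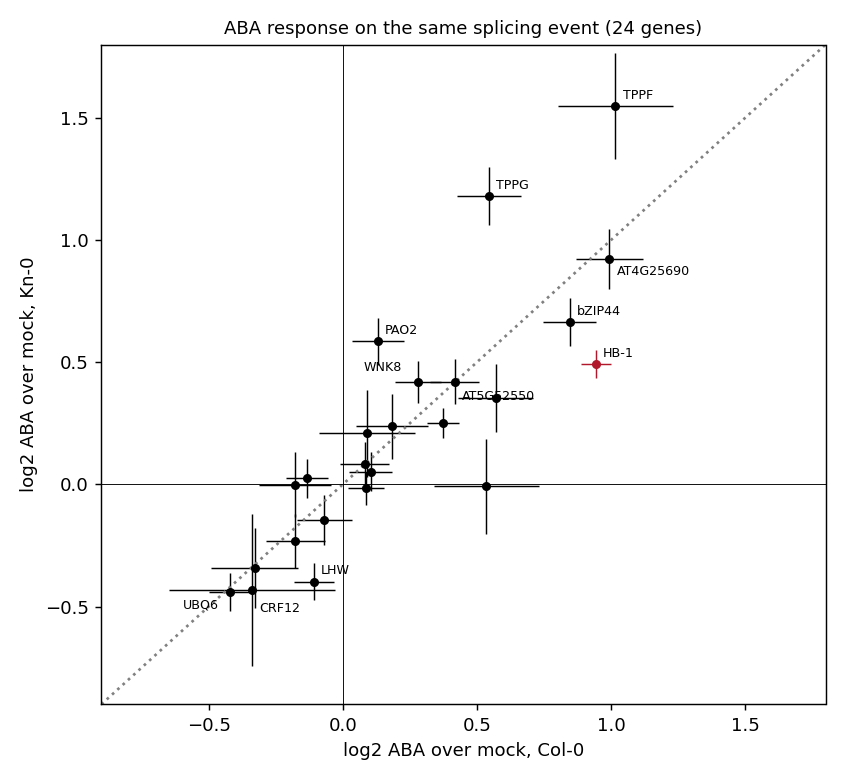
Log2 change under ABA in Kn-0 (vertical) against Col-0 (horizontal), with standard errors, on the same splicing event of 24 genes. The dotted line marks equal change, and HB-1, in red at 0.49 in Kn-0 and 0.94 in Col-0, is the gene whose difference passed.

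ABA acts partly through bZIP factors that bind the core letters ACGTG. Promoters are shown for 2 genes that rose in both accessions and were picked because they hold these letters, while those of HB-1 and AT3G10910, which also rose in Col-0, hold 0 matches. The 250 bases before the annotated gene start come from TAIR10.1, 5′ to 3′ on the minus strand, for AT4G25690 at chr4:13091799-13092048 and for TPPF at chr4:7368731-7368980. Capitals mark ACGTG or its reverse complement CACGT, which overlap in CACGTG. One or the other was present in 9 of the 21 genes that rose in Col-0 (42.9%), in 11 of the 38 others (28.9%), in 33.8% of 4257 genes above 100 that rose and in 20.8% of all 37898 promoters of this length.
AT4G25690: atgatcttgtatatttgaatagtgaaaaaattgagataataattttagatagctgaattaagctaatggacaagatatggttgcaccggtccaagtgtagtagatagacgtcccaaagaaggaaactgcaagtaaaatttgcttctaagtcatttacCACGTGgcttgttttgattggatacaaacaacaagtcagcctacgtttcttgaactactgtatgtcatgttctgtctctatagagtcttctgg
TPPF: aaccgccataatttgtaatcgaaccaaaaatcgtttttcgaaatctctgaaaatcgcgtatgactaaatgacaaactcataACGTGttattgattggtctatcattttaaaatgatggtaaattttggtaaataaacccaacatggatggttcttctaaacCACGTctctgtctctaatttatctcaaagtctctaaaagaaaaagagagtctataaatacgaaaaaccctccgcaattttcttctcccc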

How the data were processed

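Polyadenylated RNA of whole seedlings was sequenced in 12 libraries. The submitters' processing notes name STAR, featureCounts and DESeq2 as the authors' tools for all samples, and TAIR10 for the Col-0 samples; versions and a build for Kn-0 are not given in the sources used here. Each gene table carries, per the file headers, a mean signal per gene (the deposited average of size-factor-scaled counts across an accession's libraries) and the authors' log2 fold change of ABA over mock with its standard error. In the Kn-0 gene table each name stands 1 column off its values. The authors' Wald score and their deposited p-value, raw and adjusted, stand beside these. Junction read counts per library come from the authors' deposited rMATS tables.

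Library counts in 1 cell had often run together. They were separated to match the authors' inclusion levels within 0.0006, which was needed for 62.45% of Kn-0 and 59.64% of Col-0 events and failed for 119 in Kn-0 and 91 in Col-0. Of 55383 Kn-0 retained introns, 0 had TAIR10.1 coordinates, against 62.6% of 58598 in Col-0, so events were matched by type, strand and intron length. Library numbers are positions in a cell. Treatment direction was checked against the deposited changes (r = 0.965 across 13663 genes in Kn-0 and 0.966 across 13743 in Col-0; genes are not independent replicates).

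Log2 junction reads (both forms of an event summed, 1 event per gene with the most reads, plus 0.5, scaled to library totals) were tested with limma 3.58.1 in R 4.3.3 over genes with a mean of at least 10 reads per library, with Benjamini-Hochberg adjustment, after a test on simulated data. Proteins were compared with BLAST+ 2.17.0. Members and lists were chosen with earlier results of these data known. Named genes were the 12 highest in Col-0, the 8 largest called changes in each direction, members of runs, the 3 nearest the threshold, and close relatives. Members in the receptor, P450, specialized metabolism or natural loss classes were named too, as were those with junction reads in all Col-0 libraries. Of the last, AT2G37480 and the noncoding RNA AT2G24755 appear in the figures alone. Other family members named were chosen after their values were seen. Accession tables were normalized separately, so levels between them are described only.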

Additional observations from a re-analysis of the deposited data

Results flagged for a closer look

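HB-1, the homeodomain leucine zipper gene, is singled out because its response to ABA differed between the accessions in the test of the difference itself. On its shared event the log2 change was 0.49 ± 0.06 in Kn-0 and 0.94 ± 0.06 in Col-0, a difference of -0.45 ± 0.08 (adjusted p = 0.0085, limma interaction). All 3 ABA libraries lay above all 3 mock libraries in each accession. Leaving out each library in turn gave differences of -0.48 to -0.41, with adjusted p from 0.0085 to 0.035 (limma).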

How the results depend on the processing

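No paired analysis was possible because libraries in the splicing tables carry no replicate number. The gene set grew from 59 to 89 and 116 with a Kn-0 mean of up to 1 and 5. In Col-0, members called higher numbered 3 with a log2 change of at least 1 and 9 with limma on junction reads (30 genes covered), instead of 21; those called lower numbered 6 at adjusted p under 0.01, 1 with a log2 change of at least 1 and 4 with limma on junction reads, instead of 11. Leaving out each library in turn gave 8 to 9 higher and 3 to 5 lower in Col-0 junction reads, 9 to 10 higher and 2 to 4 lower in Kn-0 (4 without Kn-0 mock library 1), and 1 to 2 differences between accessions. Kn-0 reads were found for 16 genes under their own ID only, instead of 25. A close relative existed for 27 genes at 60% identity and 5 at 90%, instead of 14, and a leader frame of at least 40 codons for 23, instead of 39. Against the gene table, the sign of an uncalled log2 change turned on junction reads in MAN6 (0.083, and 0.019 to 0.175 with libraries left out) and SAC51 (-0.336, and -0.573 to -0.149, called without Col-0 ABA library 3), and with libraries left out in AT1G23150 (-0.288 to 0.033) and GRIK2 (-0.035 to 0.061); the cause was not tested. The other alternatives run kept each count within 1.5 times, and median-ratio scaling moved the median change of all genes by at most 0.045. Neighbouring-ID windows, leader frame lengths, the own-ID count and the alternatives of the accession difference were chosen after seeing the data. Depth limits genes under 100 junction reads per library.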
